A study of Mus musculus with 31 samples.

Results

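The combined chromatin state of mouse lung adenocarcinomas that retained Nkx2-1 was read from 4 histone marks laid over each other in 1 fixed grid. The tumors grew in mice of strain mixed 129/B6 aged 4 to 7 months, infected intratracheally with adenovirus or lentivirus; the labels name no driver allele and do not say which mice received the tamoxifen of the protocol. The labels give these tumors the Nkx2-1 status positive, as opposed to deleted in the comparison tumors. Of 31 samples in the series, the 8 used for the overlay were 2 libraries each, 1 from a male and 1 from a female mouse, of H3K27ac, H3K4me1, H3K4me3 and H3K27me3 in positive tumors. Peaks of Nkx2-1 (2 male mice) and of Foxa1/2 (2 male mice, 1 antibody against both proteins) in positive tumors were placed on the same grid. Both files of each group were identical merged lists, so each mark and each factor gave 1 list, and no value below has a replicate check or a p-value. The lists hold no measure of the Nkx2-1 level, so the label positive was not checked beyond the presence of Nkx2-1 peaks, which came from separate libraries.

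The marks differ in what they are known for. H3K4me3 sits at the start sites of genes, where complexes of the Trithorax group place it, and H3K4me1 marks enhancers and the flanks of promoters. H3K27ac is placed by the acetyltransferases p300 and CBP on active promoters and enhancers. H3K27me3 is placed by Polycomb repressive complex 2 on silenced genes, on the same lysine that H3K27ac uses, so a single histone tail cannot carry both. Promoters with H3K4me3 and H3K27me3 together are called bivalent. Nkx2-1 is the homeodomain factor of the lung lineage, and Foxa1 and Foxa2 are forkhead factors of endoderm-derived epithelia that can bind closed chromatin.

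A bin is 200 bp, the window of the island caller, and every island began and ended on this grid. The stretch from the first to the last island or summit on each of chromosomes 1 to 19 held 12029912 bins (2406 Mb in build mm9), and each received 1 of 16 combinations. Assembly gaps inside that stretch count as unmarked. On these chromosomes the lists held 71961 H3K27ac, 77529 H3K4me1, 40685 H3K4me3 and 48977 H3K27me3 islands, with 45040027, 35298187, 28275722 and 17598010 reads in them. H3K27ac covered 11.9% of all bins, H3K4me1 13.4%, H3K4me3 4.24% and H3K27me3 18.9%. These shares are the background for the overlaps counted in bins below. They are not a background for shares of islands, run ends or domains. Median island widths were 2400 bp for both H3K27ac and H3K4me1, 1800 bp for H3K4me3 and 6000 bp for H3K27me3. The libraries come from bulk tumor tissue, so marks called in the same bin may lie in the same cells, in different cells of a tumor or in different mice, and these cases cannot be told apart.

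At least 1 mark lay on 33.5% of the bins, and most of that length carried a single mark. One mark alone covered 552 Mb (68.4% of the marked length), 2 marks 156 Mb (19.3%), 3 marks 94.0 Mb (11.6%) and all 4 marks 4.99 Mb (0.618%). H3K27me3 alone was the longest combination, with 421 Mb in 56739 runs, where a run is a stretch of adjacent bins of 1 combination. Its runs had a median length of 5200 bp. Over the 19 chromosomes its share ranged from 13.4% to 26.6%.

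The active marks stacked on each other far more than their separate lengths would give. H3K27ac with H3K4me1, the usual signature of an active enhancer, covered 132 Mb, which was 4.41 times the product of the shares of the 4 marks being present or absent. H3K27ac, H3K4me1 and H3K4me3 together covered 81.2 Mb, or 61.3 times that product, in 35349 runs with a median of 1800 bp. The single active marks lay below the product: H3K4me1 alone covered 77.5 Mb (0.351 times), H3K27ac alone 53.0 Mb (0.275 times) and H3K4me3 alone 0.964 Mb (0.0153 times). H3K4me3 was thus almost never called without another active mark. Of its bins, 96.0% lay under H3K4me1 (95.1% to 96.5% over chromosomes) and 86.9% under H3K27ac (83.9% to 88.5%).

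H3K27me3 shared a large part of H3K4me3 where H3K27ac was absent and a small part where all 3 active marks were present. Of the bins with H3K4me1 and H3K4me3 but no H3K27ac, 43.4% carried H3K27me3 (30.5% to 49.4% over chromosomes), and of those with H3K4me3 and neither other active mark 40.4% (27.8% to 46.3%), against 20.8% of bins without an active mark. With H3K27ac added to H3K4me1 and H3K4me3 the share was 5.79% (3.99% to 7.92%). It was also low where H3K4me3 was absent, at 10.5% of the bins with H3K27ac, 9.58% of those with H3K4me1 and 5.15% of those with both. Bins with H3K27ac and H3K4me3 but no H3K4me1 differed: 19.7% (8.88% to 27.4%) carried H3K27me3, near the 20.8% of bins without an active mark. The bivalent combination of H3K4me1, H3K4me3 and H3K27me3 covered 5.12 Mb and all 4 marks 4.99 Mb. H3K4me1 with H3K27me3 covered 8.21 Mb, H3K27ac with H3K4me1 and H3K27me3 7.16 Mb, and H3K27ac with H3K27me3 6.23 Mb. Apart from the bivalent combination, these lengths depended on islands with few reads, counted per island and not per kb. Without the islands below each list's median read count, H3K4me1 with H3K27me3 went from 41044 to 18024 bins and H3K27ac with H3K4me1 and H3K27me3 from 35821 to 15287. H3K27ac with H3K27me3 went from 31132 to 20400 and all 4 marks from 24933 to 11112. The bivalent combination went from 25619 to 18867, a change of less than 1.5 times. All 4 marks exceeded the product of shares 16.2 times, but the product treats the active marks as independent of each other, which they were not.

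**Figure D1:**
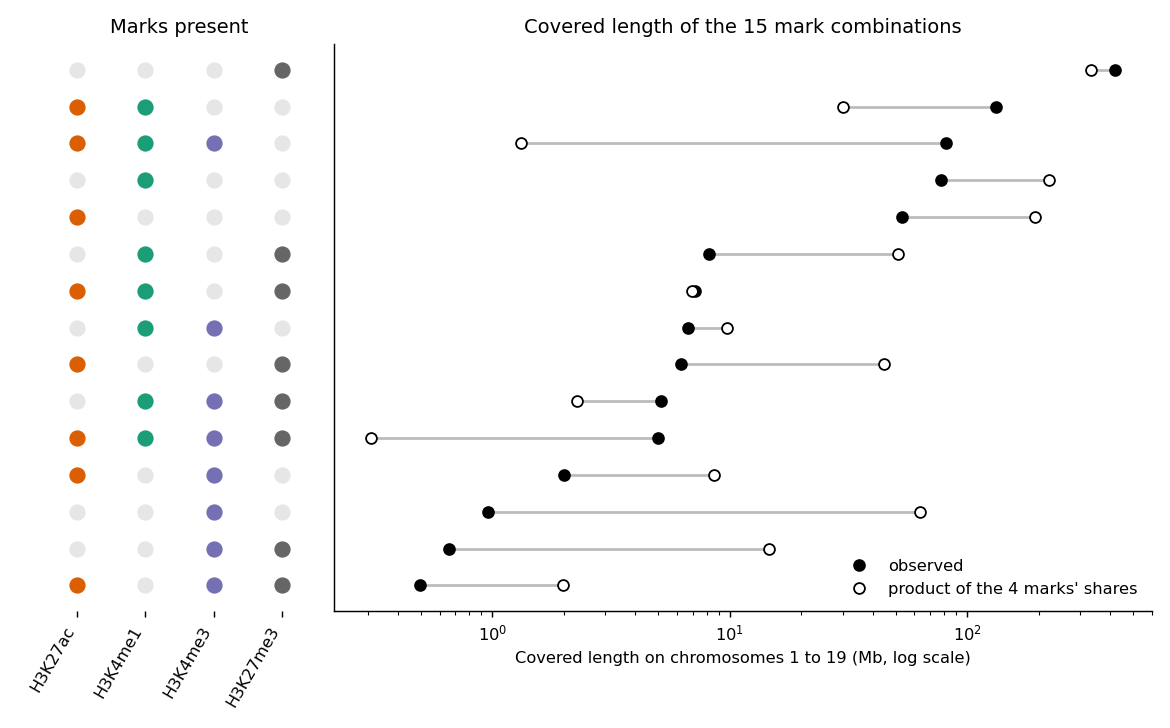
Covered length in Mb of the 15 combinations with at least 1 mark on chromosomes 1 to 19 (log scale). Coloured dots show the marks present, filled circles the observed length and open circles the length from the product of the marks' shares. H3K27ac+H3K4me1+H3K4me3 stands at 81.2 Mb against 1.33 Mb from the product, and H3K4me3 alone at 0.964 Mb against 63.2 Mb.

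H3K4me3 islands differed in shape and depth with the marks they met. Of the 40685 islands, 80.9% touched H3K27ac and not H3K27me3, 7.50% touched both, 7.25% touched H3K27me3 without H3K27ac, and 4.39% touched neither. Bivalent islands without H3K27ac had a median width of 1200 bp and a median of 98.7 reads per kb. Islands with H3K27ac and H3K27me3 were wider, at 2200 bp, with 159 reads per kb. Islands with H3K27ac only had a median of 2000 bp and 94.0 reads per kb, but their upper tail was long, with the densest 10% at 547 reads per kb or more. Islands without either were narrow, at 800 bp, with 75 reads per kb. The read count comes from the authors' island caller and is not scaled for depth, so these densities compare islands within the H3K4me3 list only.

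H3K27ac islands split in the same way by H3K4me3. Here too, and for H3K27me3 islands, wider islands had more room to touch a mark. The 26868 islands that touched H3K4me1 and H3K4me3 but not H3K27me3 had a median width of 4200 bp and 155 reads per kb. The 28349 islands with H3K4me1 as the sole other mark had 2000 bp and 78.8 reads per kb. The 8753 islands that met no other mark (12.2%) had 1400 bp and 68.6 reads per kb. Most Polycomb islands met no active mark at all: 78.9% of H3K27me3 islands touched none. The 2101 H3K27me3 islands that touched H3K4me1 and H3K4me3 without H3K27ac were the widest class, with a median of 13800 bp against 5600 bp for those with no active mark. Their read density was also the highest, at 43.9 against 34.3 reads per kb.

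Inside islands the marks had an order from the edge to the centre. Islands of 1 kb or more were divided into 5 position classes of equal width, from class 1 at the edge to class 5 at the centre. In H3K27ac islands the share of bins under H3K4me1 rose from 62.4% at the edge to 86.1% at the centre, and that under H3K4me3 from 17.4% to 38.4%. In H3K4me1 islands H3K27ac rose from 59.9% to 74.4% and H3K4me3 from 18.1% to 36.1%. In H3K4me3 islands H3K27ac rose from 77.9% to 93.0%, while H3K4me1 was high throughout, at 94.4% at the edge and 96.9% at the centre. The H3K4me1 list was called with a gap of 600 bp, so dips of H3K4me1 up to that length cannot be seen here. H3K27me3 was flat in all of these, with 6.54% and 6.58% at edge and centre of H3K27ac islands. Inside H3K27me3 islands H3K4me3 went from 1.72% to 3.09% and H3K4me1 from 4.83% to 6.31%. In the 38163 H3K27me3 islands of 4 kb or more these shares went from 1.72% to 3.17% and from 4.85% to 6.44%. In the 10312 islands of 2 to 3.8 kb H3K4me3 went from 1.72% to 1.99% and H3K4me1 was 4.63% at the edge and 4.65% at the centre.

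**Figure D2:**
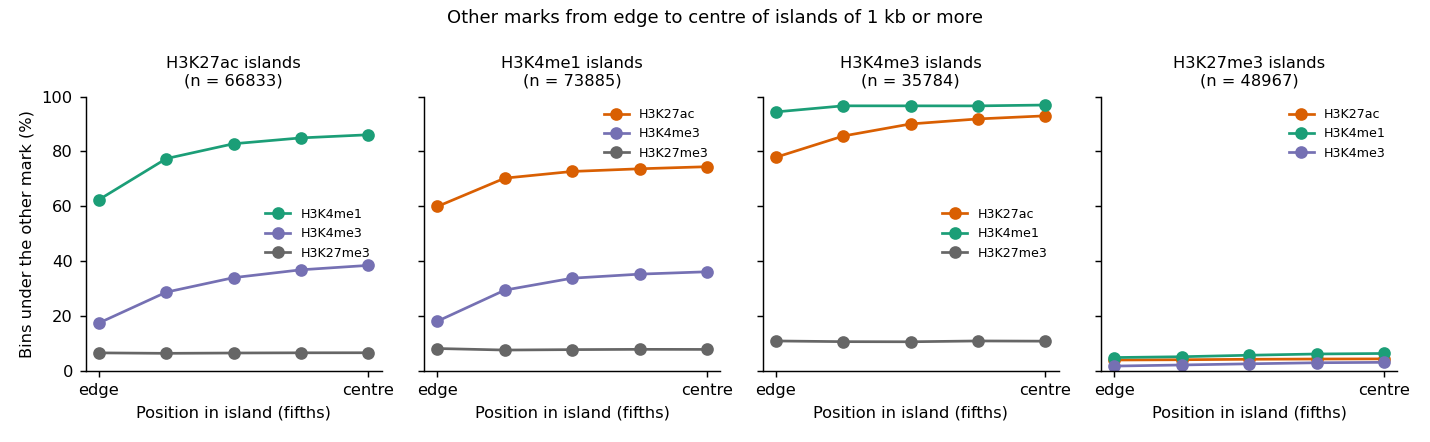
Share of bins (%) under each other mark, from class 1 (edge) to class 5 (centre) of islands of 1 kb or more, with 1 panel per island mark and the number of islands above it. In H3K27ac islands H3K4me3 goes from 17.4% to 38.4%; the H3K27me3 lines stay flat.

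The order was then read along whole active domains, defined as stretches of adjacent bins with at least 1 of the 3 active marks. There were 82905 such domains. Those with all 3 marks numbered 26420 (31.9%), had a median width of 5800 bp and held 61.1% of the domain length. Each of their 52840 sides was ordered by which mark began first when moving inward. H3K4me3 began strictly last on 63.3% of sides (Wilson interval 62.9 to 63.8; 58.5% to 66.5% over chromosomes) and first or tied for first on 13.2%. It began a median of 1000 bp inside the domain end. H3K4me3 covered 4.24% of all bins with a median island of 1800 bp. H3K27ac covered 11.9% and H3K4me1 13.4%, both with a median island of 2400 bp. Shorter islands would begin last more often for unrelated lists too, and no expected share was worked out. The share thus cannot tell an order of the marks from a difference in island length.

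Which of the other 2 marks lay outermost was nearly balanced. H3K4me1 began before H3K27ac on 44.9% of sides (44.5 to 45.3), H3K27ac before H3K4me1 on 38.2% (37.8 to 38.7), and both in the same bin on 16.9%. The single most frequent full order from the outside was H3K27ac, H3K4me1, H3K4me3, on 32.2% of sides (31.8 to 32.6). The order H3K4me1, H3K27ac, H3K4me3 took 19.4% (19.04 to 19.71; 17.1% to 20.8% over chromosomes), or 37.6% if marks that begin in the same bin are allowed. A further 12.2% read H3K4me1, H3K4me3, H3K27ac, with H3K27ac beginning last, inside the H3K4me3 island. H3K4me1 islands were called with a gap of 600 bp and H3K27ac and H3K4me3 islands with 200 bp, which widens H3K4me1 by construction. With gaps of up to 600 bp filled in the other lists as well, the 2 orders with H3K4me3 last stood at 30.6% and 20.5%. With only the islands above each list's median read count they stood at 26.1% and 20.1%.

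Read as a sequence of combinations, 3-mark domains had a median of 5 runs, and 3712 different sequences occurred. The most frequent, in 2403 domains (9.10%), was symmetric: H3K27ac alone, then H3K27ac with H3K4me1, then all 3 marks, and back out through the same steps. The same core with H3K27ac alone on one side and H3K4me1 alone on the other followed in 1372 domains (5.19%). The version with H3K4me1 alone on both sides occurred in 651 domains (2.46%).

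Neighbouring runs mostly differed by 1 mark. Of 444891 boundaries between runs, 93.0% changed a single mark, 6.56% changed 2 marks, 0.467% changed 3, and 14 boundaries changed all 4. A change of 2 or more marks needs islands of different lists to end or begin at the same 200 bp boundary. Single changes would thus prevail for unrelated lists too, and no expected share was worked out. The run ends of the 3-mark active combination met H3K27ac with H3K4me1 in 66.4% of cases (66.0 to 66.7), H3K4me1 with H3K4me3 in 15.2% and H3K4me1 alone in 6.00%. H3K27ac with H3K4me1 lay in the middle of the active series. Its ends met the 3-mark combination in 31.4%, H3K27ac alone in 29.7%, H3K4me1 alone in 28.8% and unmarked bins in 9.09%. H3K27ac alone met unmarked bins at 53.4% of its ends and H3K27ac with H3K4me1 at 42.5%.

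The ends of Polycomb runs mostly met unmarked bins. Of all 12029912 bins, 7995896 were unmarked and 2268018 carried H3K27me3, and domains with an active mark held 386 of 2406 Mb. Unmarked bins are thus common next to any run, and no expected share was worked out for run ends. H3K27me3 alone met unmarked bins at 80.4% of its ends (80.1 to 80.6), H3K4me1 with H3K27me3 at 9.62% and H3K27ac with H3K27me3 at 5.51%. Among the 97912 ends of H3K27me3 islands, 6.48% had an active mark in the end bin itself and 2.68% had the next active bin within 1000 bp outward. For all ends without an active mark in the end bin, the median distance outward to active chromatin was 41000 bp. The run ends of the bivalent combination of H3K4me1, H3K4me3 and H3K27me3 met H3K4me1 with H3K27me3 in 43.0%, H3K27me3 alone in 21.3% and all 4 marks in 19.7%. These runs carry H3K27me3 by definition and are shorter (median 800 bp) than H3K27me3 islands (median 6000 bp). Most of their neighbours thus keep H3K27me3 by construction, and the shares show no special placement.

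**Figure D3:**
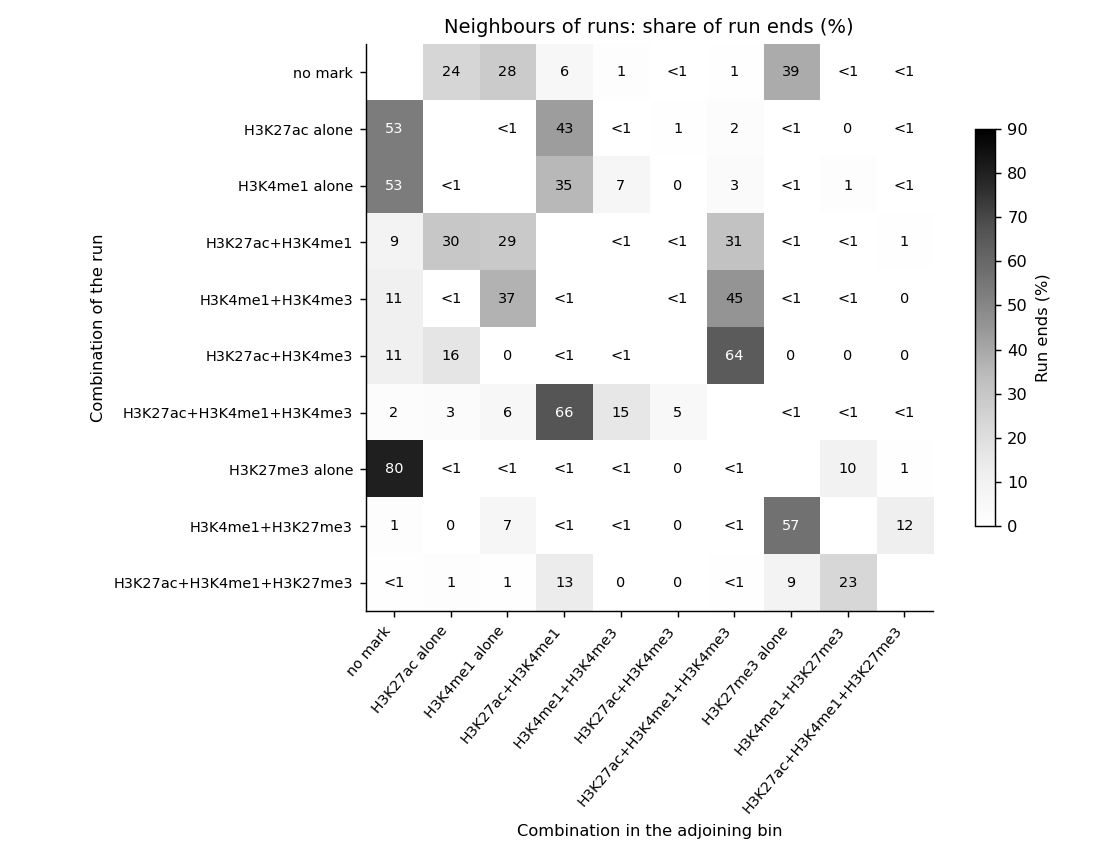
Share (%) of the run ends of each combination (rows) that meet each other combination in the adjoining bin (columns), for 10 of the 16 combinations; darker means a larger share. Runs of all 3 active marks meet H3K27ac+H3K4me1 at 66% of their ends, and runs of H3K27me3 alone meet unmarked bins at 80%.

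Nkx2-1 and Foxa1/2 summits were concentrated in the combinations of active marks. A summit is the base at which the authors' caller placed the maximum of a peak. Bins that held a summit made up 0.243% of all bins for Nkx2-1 (29265 summits) and 0.188% for Foxa1/2 (22611 summits), or 12.2 and 9.40 summits per Mb. Intervals on densities are exact Poisson intervals at 95% and, like the Wilson intervals, cover counting error only. The combination of H3K27ac, H3K4me1 and H3K4me3 held 61.6% of Nkx2-1 summits and 55.4% of Foxa1/2 summits on 3.37% of the bins. H3K27ac with H3K4me1 held a further 26.0% and 30.6%, and H3K4me1 alone 6.07% and 8.14%. Unmarked bins, 66.5% of all, held 1.12% and 2.27%.

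For Nkx2-1 the density rose with each active mark added to H3K4me1. It was 22.9 summits per Mb (21.8 to 24.0) in H3K4me1 alone, 57.7 (56.5 to 59.1) with H3K27ac added and 222 (219 to 225) with H3K27ac and H3K4me3 added. H3K4me1 with H3K4me3 but no H3K27ac had 64.2 per Mb (58.3 to 70.6), an interval that overlaps that of H3K27ac with H3K4me1. The ratio of these last 2 was 1.11 (1.01 to 1.23) and was above 1 on 12 of 19 chromosomes. H3K4me1 alone and all 4 marks together (22.3; 18.3 to 26.8) also had overlapping intervals.

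Foxa1/2 followed the same steps with a shallower rise at H3K4me3. Its density was 23.8 per Mb (22.7 to 24.9) in H3K4me1 alone, 52.5 (51.3 to 53.7) with H3K27ac and 154 (152 to 157) with all 3 active marks. The step from H3K4me1 alone to H3K27ac with H3K4me1 was 2.52-fold for Nkx2-1 (2.39 to 2.66) and 2.21-fold for Foxa1/2 (2.10 to 2.33). The step from there to the 3-mark combination was 3.85-fold (3.74 to 3.95) and 2.94-fold (2.85 to 3.03). Each of these 4 ratios was above 1 on 19 of 19 chromosomes. When the islands of every list below its median read count were left out, the second step shrank to 1.95-fold and 1.38-fold. In H3K4me1 with H3K4me3 but no H3K27ac, Foxa1/2 had 43.4 summits per Mb (38.5 to 48.7). This was 0.827 times (0.733 to 0.930) its density in H3K27ac with H3K4me1, where the Nkx2-1 ratio was 1.11. The Foxa1/2 ratio was above 1 on 5 of 19 chromosomes.

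**Figure D4:**
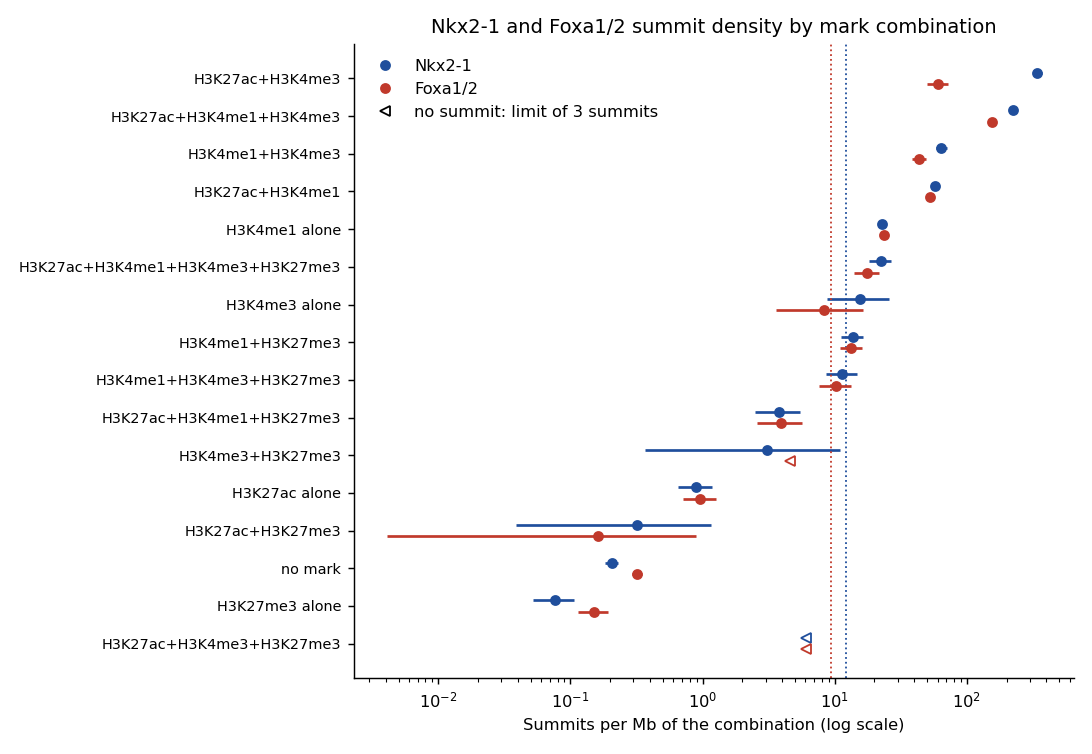
Summits per Mb (log scale) of Nkx2-1 (blue) and Foxa1/2 (red) in each of the 16 combinations, with exact 95% Poisson intervals as bars; open triangles mark a combination with no summit at the density that 3 summits would give, and dotted lines the density over all bins. H3K27ac+H3K4me3 is the highest row for Nkx2-1, at 342 per Mb, while Foxa1/2 stands at 60.2 there.

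H3K27ac islands with more reads per kb also held more of the 3-mark combination, so the second step was read within classes of H3K27ac island density. In the lowest 25% of islands (under 71.0 reads per kb) Nkx2-1 had 41.6 summits per Mb in H3K27ac with H3K4me1 and 145 in the 3-mark combination, a ratio of 3.496 (2.96 to 4.12). In the top 10% (from 216 reads per kb) the values were 55.1 and 225, a ratio of 4.09 (3.84 to 4.35). For Foxa1/2 the ratio was 2.57 (2.13 to 3.07) in the lowest 25% and 3.03 (2.84 to 3.24) in the top 10%. Over the 5 classes the ratio ranged from 3.00 to 4.09 for Nkx2-1 and from 2.57 to 3.09 for Foxa1/2.

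A further departure from the shared pattern was H3K27ac with H3K4me3 in the absence of H3K4me1. This combination covered 2.01 Mb in 2705 runs with a median of 800 bp and had the highest Nkx2-1 density of all 16, at 342 summits per Mb (317 to 369; 250 to 455 over chromosomes). Foxa1/2 reached 60.2 per Mb (49.9 to 71.9) there. Relative to the 3-mark combination Nkx2-1 was 1.54-fold denser (1.43 to 1.66), on 19 of 19 chromosomes, and Foxa1/2 stood at 0.390 times (0.323 to 0.466), below 1 on 19 of 19. Nkx2-1 made up 85.0% (82.4 to 87.3) of the 809 summits of both factors in these bins, against 59.0% (58.4 to 59.6) in the 3-mark combination and 56.4% over all bins.

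Most of these Nkx2-1 peaks had no Foxa1/2 peak beside them. A Foxa1/2 peak overlapped 19.9% (17.1 to 23.1) of the 688 Nkx2-1 peaks in this combination, against 50.2% (49.5 to 51.0) of those in the 3-mark combination and 47.7% over all autosomes. In the other direction, 86.0% (78.6 to 91.0) of the 121 Foxa1/2 peaks there overlapped an Nkx2-1 peak, against 72.3% (71.6 to 73.1). The median Nkx2-1 peak score was 193 in this combination and 179 in the 3-mark combination. If the marks of the bins on either side of the summit bin are counted too, the ratio of Nkx2-1 densities was 1.17.

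Most of these Nkx2-1 summits lay in holes of H3K4me1 inside wide H3K4me3 islands. A hole has H3K4me1 on both sides of it within 1 H3K4me3 island. Holes took in 60.2% of the bins of H3K27ac with H3K4me3 and 95.8% of the Nkx2-1 summits there. They occurred in 1275 of 40685 H3K4me3 islands (3.13%). Islands with a hole had a median width of 5800 bp and 516 reads per kb, against 1800 bp and 92.0 reads per kb for the others. The median hole was 800 bp long, which was also the shortest: the 600 bp gap setting of the H3K4me1 list bridges shorter dips. The holes spanned 1.32 Mb and held 663 Nkx2-1 summits (502 per Mb) and 115 Foxa1/2 summits (87.1 per Mb). The part that read depth at these dense islands has in the Nkx2-1 peaks was not tested.

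Bins with H3K27ac and no other mark were nearly free of both factors. The 53.0 Mb of this combination held 47 Nkx2-1 and 51 Foxa1/2 summits, or 0.886 (0.651 to 1.18) and 0.962 (0.716 to 1.26) per Mb. Against H3K27ac with H3K4me1 these are ratios of 0.0153 (0.0113 to 0.0204) and 0.0183 (0.0136 to 0.0241). The summits lay in islands of all 5 density classes: the top 10% of H3K27ac islands by read density held 5.42 Mb of this combination with 3 Nkx2-1 and 5 Foxa1/2 summits. Without the lower 50% of each island list the ratios were 0.126 and 0.123. Without the lower 50% of peaks by score they were 0.00943 and 0.00991. The 8753 H3K27ac islands that met no other mark spanned 13.9 Mb, so most of this length lay in islands that also met another mark. Runs of H3K27ac alone met H3K27ac with H3K4me1 at 42.5% of their ends. Both factors were sparser at island edges, with 32.0 Nkx2-1 summits per Mb in class 1 of H3K27ac islands of 2000 bp or more. The part that position in the island has in these ratios was not tested.

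Summits of both factors were sparser with H3K27me3 than without it in each of the 4 active combinations with H3K4me1. H3K27me3 alone had 0.0761 Nkx2-1 summits per Mb (0.0520 to 0.107) and 0.150 Foxa1/2 summits (0.115 to 0.192), against 0.205 and 0.321 in unmarked bins. H3K4me1 with H3K27me3, the usual signature of a poised enhancer, had 13.6 Nkx2-1 summits per Mb (11.2 to 16.4) and 13.3 Foxa1/2 summits (10.90 to 16.02). These were 0.596 times (0.488 to 0.721) and 0.559 times (0.456 to 0.678) the densities in H3K4me1 alone. All 4 marks together stood at 0.100 times (0.0824 to 0.121) and 0.113 times (0.0905 to 0.140) the density of the 3 active marks without H3K27me3.

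In bins with H3K4me1 and H3K27me3 and without H3K4me3, the density was lower with H3K27ac than without it. With H3K27ac these bins had 3.77 Nkx2-1 summits per Mb (27 summits) against 13.6 without it (112 summits), a ratio of 0.276 (0.174 to 0.424) that was below 1 on 17 of 19 chromosomes. For Foxa1/2 the counts were 28 and 109 and the ratio was 0.294 (0.187 to 0.449), again below 1 on 17 of 19. With chromosome X added the ratios were 0.547 and 0.588. H3K4me1 islands that touched H3K27ac and H3K27me3 had a median of 61.9 reads per kb. Those that touched H3K27me3 as the sole other mark had 70.0, and those that touched H3K27ac as the sole other mark 80.8. The part that island depth has in these ratios was not tested. In the presence of H3K4me3 the direction differed: all 4 marks had 1.97 times (1.42 to 2.75) the Nkx2-1 density of H3K4me1 with H3K4me3 and H3K27me3. H3K27ac with H3K4me3 and H3K27me3 held 0 summits of either factor on 0.494 Mb, where a limit of 3 summits would be 6.07 per Mb and the exact Poisson interval reaches 7.46 per Mb.

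Peak score and co-binding moved with the combinations. The median Nkx2-1 score was 89.0 in unmarked bins, 123 in H3K4me1 alone, 143 in H3K27ac with H3K4me1 and 179 in the 3-mark combination, and the median Foxa1/2 scores were 99.0, 132, 170 and 217. In the lowest 25% of Nkx2-1 peaks by score 53.2% (52.0 to 54.3) of summits lay in the 3-mark combination, and in the highest 25% 69.3% (68.2 to 70.4). For Foxa1/2 the shares were 47.1% (45.8 to 48.4) and 66.2% (65.0 to 67.4). A Foxa1/2 peak overlapped 12.5% (9.35 to 16.5) of Nkx2-1 peaks in unmarked bins, 39.5% (37.3 to 41.8) in H3K4me1 alone, 49.0% (47.9 to 50.2) in H3K27ac with H3K4me1 and 50.2% in the 3-mark combination.

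Within islands both factors lay toward the centre. In H3K27ac islands of 2000 bp or more, Nkx2-1 density rose from 32.0 per Mb (30.5 to 33.6) in class 1 to 143 (140 to 146) in class 5, and Foxa1/2 density from 23.8 (22.4 to 25.2) to 107 (104 to 110). In H3K4me3 islands of that length Nkx2-1 reached 214 per Mb (206 to 221) in class 4 and 204 (197 to 211) in class 5, and Foxa1/2 126 (120 to 131) and 134 (128 to 140). The intervals of these 2 classes overlap for both factors. Around Nkx2-1 summits, H3K4me3 fell from 66.1% of summits at the summit bin to 40.7% at 1000 bp and 16.7% at 5000 bp. H3K27ac was broader, at 90.6%, 81.7% and 48.0%. H3K4me1 stood at 96.2%, 82.6% and 47.1%. For Foxa1/2 the H3K4me3 values were 57.9%, 33.4% and 15.7%.

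**Figure D5:**
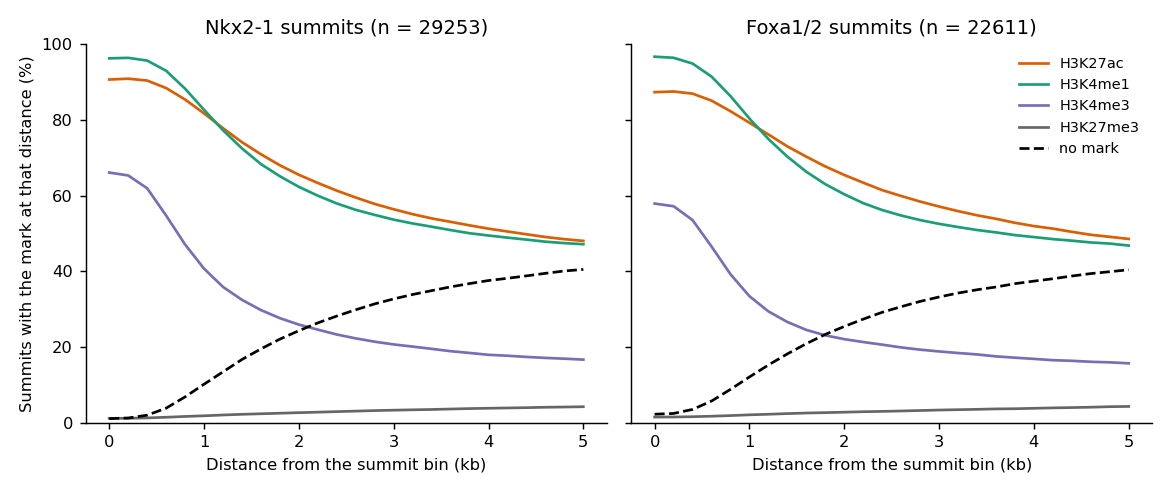
Share (%) of Nkx2-1 and Foxa1/2 summits with each mark, or with none, at distances of 0 to 5 kb from the summit bin, both directions averaged. H3K4me3 around Nkx2-1 goes from 66.1% at the summit to 16.7% at 5 kb, and unmarked bins rise to 40.5%.

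Unmarked summits tended to lie near islands. The 328 unmarked Nkx2-1 summits were a median of 2600 bp from the next marked bin and the 514 unmarked Foxa1/2 summits 3200 bp, against 11000 bp for all unmarked bins. Within 1000 bp of an island the densities were 0.548 and 0.719 per Mb, and farther away 0.158 and 0.267.

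By domain, Nkx2-1 and Foxa1/2 summits both occurred in 31.8% (31.3 to 32.4) of the 26420 domains with 3 active marks, and these had a median width of 10700 bp. Nkx2-1 without Foxa1/2 occurred in 19.6% and Foxa1/2 without Nkx2-1 in 6.76%, and 41.9% held no summit, at a median width of 4000 bp. In the 22757 domains with H3K27ac and H3K4me1 but no H3K4me3, 74.0% held no summit, and in the 18351 domains with H3K4me1 alone 89.1%. Wider domains have more room for a summit, so these shares move with width.

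Single regions show the range of the combinations, given in mm9 coordinates counted from 1. The widest run of the 3 active marks lay on chromosome 7 at 86417001 to 86450600 (33600 bp), held 5 Nkx2-1 and 8 Foxa1/2 summits, and was bounded by H3K27ac with H3K4me1 on both sides. The runs with the most summits, all of this combination, lay on chromosome 12 at 86100801 to 86117400 (8 Nkx2-1, 7 Foxa1/2), chromosome 15 at 77639801 to 77671600 (9 and 5) and chromosome 4 at 128901801 to 128926800 (8 and 5). The last of these, with 13 summits, tied with 2 other runs, 1 of them the chromosome 7 run above, and was listed for its lower chromosome number or start. The widest run of H3K27ac with H3K4me1, on chromosome 8 at 42074001 to 42098600, held 0 Nkx2-1 and 1 Foxa1/2 summit. The widest run of H3K27ac alone, on chromosome 8 at 129193801 to 129204800, lay in an island denser than 94.2% of its list and held no summit of either factor.

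Runs with H3K27me3 in this set held no summit of either factor. At the summit densities of their combinations, runs of these lengths would seldom hold one. The widest run of H3K27me3 alone lay on chromosome 11 at 80967601 to 81142000 (174400 bp) and adjoined a bivalent run of H3K4me1, H3K4me3 and H3K27me3 on one side. The widest of H3K4me1 with H3K27me3, on chromosome 9 at 69609401 to 69618400, also adjoined a bivalent run and lay in a Polycomb island denser than 99.9% of its list. The widest of H3K27ac with H3K4me1 and H3K27me3 lay on chromosome 11 at 68275201 to 68290400, under an H3K4me1 island denser than only 14.4% of its list. The widest run of H3K4me1 with H3K4me3, on chromosome 13 at 112269401 to 112274400, held no summit either. The widest run of H3K4me1 alone, on chromosome 11 at 3049001 to 3100200 (51200 bp), stood apart: its island had 616 reads per kb, more than 99.997% of H3K4me1 islands, and was the first H3K4me1 island listed on its chromosome. It was under H3K4me1 over 100% of its length in deleted tumors too.

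The same overlay of the deleted tumors, also 1 male and 1 female mouse per mark, in the same bins, gave less length to several active combinations. The 3-mark active combination covered 48.6 Mb there against 81.2 Mb, H3K27ac with H3K4me3 0.760 against 2.01 Mb, and H3K4me1 with H3K4me3 3.17 against 6.68 Mb. H3K27ac alone covered 29.1 against 53.0 Mb and H3K4me3 alone 0.337 against 0.964 Mb. H3K27ac with H3K4me1 covered 128 against 132 Mb, H3K27me3 alone 414 against 421 Mb, and H3K4me1 with H3K27me3 12.6 against 8.21 Mb. Of the 3-mark bins of positive tumors, 55.8% (51.3% to 61.3% over chromosomes) carried the same combination in deleted tumors and 33.0% carried H3K27ac with H3K4me1. In the other direction, 93.2% of the 3-mark bins of deleted tumors were 3-mark bins in positive tumors. With 1 list per mark and tumor type, and lists of unequal length and read number, these differences could not be tested.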

How the data were processed

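Immunoprecipitated chromatin was read from 1 end for 40 to 50 nucleotides, per the labels' protocols. Bowtie, MACS 1.4.2, SICER 1.1 and mm9 appear in the submitters' processing notes, which do not say what each was used for. The deposited island lists carry their settings in their names: windows of 200 bp, FDR 0.01, and a gap of 200 bp for H3K27ac and H3K4me3 but 600 bp for H3K4me1 and H3K27me3. The names of the peak lists give a caller cutoff of 1e-06. Each deposited island has a read count, not scaled for depth, and each deposited peak a score and a summit from the authors' callers. The 22 files were 11 pairs of identical merged lists, and each pair was used as 1 list. The 9 inputs were not used. By the labels, the 4 male histone libraries of positive tumors shared an input with an Nkx2-1 library.

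Islands were laid on the 200 bp grid with the end column read as the last base. Shares carry 95% Wilson intervals, densities exact Poisson intervals, and density ratios intervals from the exact binomial share of the 2 counts. On simulated islands already placed on the grid the overlay recovered 60000 of 60000 bins. This checks the overlay step only, not the reading of the lists or of their end column. Python 3.11.15, numpy 2.4.6, scipy 1.17.1 and matplotlib 3.10.9 were used. The combinations, results and alternatives were chosen with earlier results of these data known. The classes of H3K27ac density, the H3K4me1 holes, the share of bins with H3K27me3 per active combination and the strict reading of the mark order (ties not counted) were settled after values had been seen. Regions were named by rule: the widest run of each of the 8 combinations with the most bins, and the 3 runs with the most summits. The annotation at hand is of build GRCm38, so regions carry no gene names and no sequence is shown.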

Additional observations from a re-analysis of the deposited data

Results flagged for a closer look

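Peaks on random or unplaced sequence lay outside the overlay, which used chromosomes 1 to 19. The Nkx2-1 list held 25 such peaks and the Foxa1/2 list of positive tumors 14. They were not analysed further.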

How the results depend on the processing

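Leaving out a replicate was not run, because the merged list of a group is the same in both of its files. No paired analysis was possible because each mark and factor has 1 list. There were 38 planned checks, but those on the mark order used the strict reading that was settled after values had been seen. Of the 38, 22 stayed within the interval of the reported value (for covered length, within 1.5 times). These included all 12 on the length of the 4 longest marked combinations, and no ratio changed direction. The other 16 were these. With the islands above each list's median read count, the share of sides ordered H3K4me1, H3K27ac, H3K4me3 was 20.1% and that of 3-mark run ends meeting H3K27ac with H3K4me1 55.4%; the density of the 3-mark combination over H3K27ac with H3K4me1 was 1.95 (Nkx2-1) and 1.38 (Foxa1/2), and that of H3K27ac with H3K4me1 over H3K4me1 alone 3.23 and 2.95. With gaps filled to 600 bp the shares were 20.5% and 67.2%, and the last ratio for Nkx2-1 was 2.67. Chromosome X brought the run-end share to 65.9%. Counting the marks of the summit bin and its neighbours gave 2.98 and 2.45 for the last ratio. The upper 50% of peaks by score gave 4.65 and 3.47 for the first ratio and 3.05 and 2.83 for the last. The cause of these shifts was not tested. Of 66 checks on other values, chosen after seeing the data, 17 moved. The total depth of each library was not analysed here, so a mark missing from a bin may lie below what its library could detect.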
